A study of Rattus norvegicus with 24 samples.

Results

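The rat transfer RNA features for lysine with the anticodon TTT were examined in small RNA libraries from the injured and the sham-operated brain. A feature is 1 annotated tRNA gene, named in the tables by a number, an amino acid and an anticodon, and it counts all reads assigned to that gene. All rows whose name ends in -LysTTT were taken, which gave 9 features of the 444 tRNA features and 1172 small RNA features in the cortex count table, and the same 9 features in both small RNA tables. tRNA5177-LysTTT was set against the other 8 because it alone among them had separated injured from sham rats in an earlier analysis of these libraries. Its injury difference is therefore described here without a test.

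Adult Sprague-Dawley rats received a lateral fluid-percussion injury, a model of traumatic brain injury (TBI) in which a fluid pulse strikes the exposed dura, or a sham operation with anesthesia and craniectomy but no pulse. Perilesional cortex and ipsilateral thalamus were collected from the same animals 3 months after surgery, with 6 rats in each of the groups TBI cortex, TBI thalamus, sham cortex and sham thalamus. The injured rats had been picked from a larger cohort by imaging signs of chronic inflammation around the lesion, so they stand for that kind of injured rat, and males only were used. The 24 libraries were made from total RNA and held inserts of miRNA and tRNA fragment size, so the reads come from fragments and not from whole tRNAs.

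Lysine tRNAs with the anticodon TTT (UUU in the RNA) read the lysine codons AAA and AAG, while those with CTT read AAG. Both are encoded by many gene copies, several of which can be identical in the mature sequence. Under stress, nucleases such as angiogenin cut mature tRNAs in the anticodon loop or elsewhere, and the pieces from the 5′ or 3′ end are called tRNA-derived fragments. Some of these fragments bind Argonaute proteins or affect translation. The current RefSeq annotation of the rat assembly GRCr8 lists 9 lysine tRNA genes with this anticodon, each 73 bases long. The numbered features were not matched to these genes, and their sequences and positions were not analysed here.

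The cortex small RNA table rested on 847300 to 4501868 reads per library and the thalamus table on 615608 to 4530850, so that 1 read was worth 0.222 to 1.18 CPM (a read count scaled to the library total) in cortex and 0.221 to 1.62 CPM in thalamus. The neural miRNAs miR-124-3p, miR-9a-5p and miR-128-3p were all present and summed to between 126708 and 393803 CPM per library. Markers of other cells shifted between the groups with overlap. In cortex all 4 leukocyte and microglia miRNAs (miR-142-3p, miR-142-5p, miR-223-3p and miR-150-5p) were listed, and their sum was 600 to 1002 CPM in sham and 708 to 1659 CPM in TBI. In thalamus 3 of the 4 were listed (not miR-223-3p), at 619 to 1265 CPM in sham and 851 to 2015 CPM in TBI. The neural sum in cortex was 268637 to 393803 CPM in sham and 214966 to 297068 CPM in TBI, and in thalamus 180623 to 230994 and 126708 to 209440 CPM. The sums of 3 vascular, 2 oligodendrocyte and 2 red blood cell miRNAs, all listed, overlapped between TBI and sham in both regions. From sham to TBI the oligodendrocyte median went from 282 to 367 CPM in cortex and from 1337 to 1035 CPM in thalamus. The red blood cell median went from 31.4 to 35.7 CPM in cortex and from 27.8 to 25.9 CPM in thalamus. The vascular median was higher in TBI in both regions. The part of these shifts in the tRNA values was not tested. In such bulk tissue, a change in the number of cells of a type and a change in RNA per cell cannot be told apart.

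The 9 features fell into an abundant set and a low set. tRNA6856, tRNA10115, tRNA10825, tRNA783, tRNA5115 and tRNA1683-LysTTT had nearly the same read count as each other in every library. The highest of these 6 exceeded the lowest by a factor of 1.03 to 1.33 in the 12 cortex libraries (median 1.15) and of 1.08 to 1.35 in the 12 thalamus libraries (median 1.17). Their coefficient of variation within a library had a median of 5.34% in cortex, where read counting alone would give 4.71%, and of 6.55% in thalamus, against 3.87%. The equality thus came close to counting error in cortex and was somewhat looser in thalamus. Together the 6 features held 95.9% ± 0.503 (SD, n = 6) of Lys-TTT reads in sham cortex, 95.5% ± 1.23 in TBI cortex, 94.9% ± 3.52 in sham thalamus and 94.5% ± 1.11 in TBI thalamus. This set was formed after the values were seen. How the authors assigned a read that matches several tRNA copies is not given in the sources used here, so the 6 values cannot be treated as 6 independent measurements.

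The 3 remaining features were far lower. tRNA4533-LysTTT was at 13.2 to 32.6 CPM in sham cortex (median 20.8) and 15.3 to 25.8 CPM in TBI cortex (median 23.2). In thalamus it was at 17.4 to 33.5 CPM in sham (median 20.7) and 17.6 to 28.7 CPM in TBI (median 24.6). Sham and TBI rats overlapped in both regions. tRNA3846-LysTTT was at 9.17 to 24.1 CPM in sham cortex (median 12.6) and 11.8 to 21.9 CPM in TBI cortex (median 17.1). Its thalamic values were 15.4 to 28.7 CPM in sham (median 19.6) and 6.50 to 27.6 CPM in TBI (median 21.9), and again the groups overlapped.

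tRNA5177-LysTTT was the only member whose injured and sham rats were fully apart. In sham cortex it lay at 3.39 CPM in rat 38, 4.07 in rat 26, 4.69 in rat 50, 6.22 in rat 32, 8.50 in rat 34 and 12.2 in rat 55. In TBI cortex it lay at 20.5 CPM in rat 63, 22.4 in rat 56, 22.5 in rat 45, 24.5 in rat 22, 26.01 in rat 52 and 32.7 in rat 24. The highest sham rat was thus well below the lowest injured rat. In sham thalamus the values were 7.16 CPM in rat 26, 11.0 in rat 34, 12.4 in rat 50, 13.9 in rat 38, 14.4 in rat 32 and 17.6 in rat 55. In TBI thalamus they were 41.7 CPM in rats 22 and 52, 57.2 in rat 63, 59.8 in rat 45, 65.0 in rat 56 and 75.4 in rat 24. Here too no injured rat came near the sham range. Rat 24 had the highest value of the injured rats in both regions and rat 55 the highest of the sham rats in both.

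**Figure D1:**
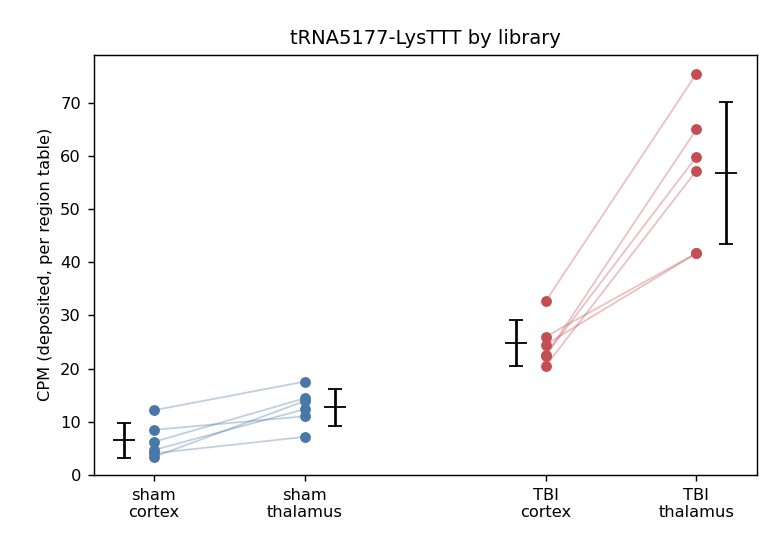
Level of tRNA5177-LysTTT in CPM (vertical axis, from 0) in sham and TBI rats, cortex and thalamus. Points are libraries, thin lines join the regions of 1 rat, and black bars are the mean ± SD of 6 rats. The 6 TBI cortex points start at 20.5 CPM, above the highest sham cortex point of 12.2 CPM, and the TBI thalamus points start at 41.7 CPM, above the highest sham thalamus point of 17.6 CPM.

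Ordered by mean level, sham cortex had 6.51 ± 3.32 CPM, sham thalamus 12.7 ± 3.51 CPM, TBI cortex 24.8 ± 4.31 CPM and TBI thalamus 56.8 ± 13.3 CPM (SD, n = 6). Sham cortex and sham thalamus overlapped in range, while sham thalamus and TBI cortex did not, nor did TBI cortex and TBI thalamus. The cortex and thalamus tables were scaled separately, so the steps of this order that cross regions were not tested as CPM. The values rested on 4 to 28 reads per library in sham cortex, 19 to 83 in TBI cortex, 11 to 50 in sham thalamus and 40 to 243 in TBI thalamus. Among sham cortex libraries, rat 50 with 4 reads and rat 26 with 8 reads were the least precise.

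The first comparison asked whether fragments of these tRNAs differed between injured and sham rats. tRNA5177-LysTTT was higher in TBI, with a log2 fold change of 1.70 (SE 0.24) in cortex on the TMM-scaled count scale of edgeR. In thalamus it was 2.08 (SE 0.24) on the log2(CPM + 1) scale of limma, a scale that understates the change of low features. These sizes ranked second among 645 features tested in cortex and second among 640 in thalamus. Leaving out single rats gave 1.55 to 1.85 in cortex and 1.94 to 2.18 in thalamus. All 9 members passed the filter on low values in both regions. At an adjusted p of 0.05, 1 of the 9 was called in each region, tRNA5177-LysTTT, where 4.34% of all tested features (2.79% as higher in TBI) and 4.74% of tRNA features were called in cortex (edgeR), and 2.19% of all and 4.51% of tRNA features in thalamus (limma). The rule that set this feature apart used the same contrast, so nothing is read from that count. Every TBI library lay above every sham library for 1 of 9 members in each region, while on the deposited CPM 3.96% of all and 6.32% of tRNA features did so in cortex, and 2.50% of all and 5.26% of tRNA features in thalamus.

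The log2 fold changes of the 6 abundant features lay between 0.22 and 0.31 in cortex (median 0.27) and between 0.46 and 0.70 in thalamus (median 0.61). Without single rats they ran from 0.17 to 0.44 in cortex and from 0.21 to 0.93 in thalamus. Leaving out TBI rat 63 took tRNA10115-LysTTT in cortex from 0.22 to 0.35, and leaving out sham rat 55 took tRNA5115-LysTTT in thalamus from 0.46 to 0.21. Their mean level per library was 113 to 247 CPM in sham cortex (median 151) and 110 to 311 CPM in TBI cortex (median 267). By this mean TBI rat 63 lay below every sham rat, and 3 or 4 of the 6 TBI rats lay above all sham rats for each of these features. In thalamus the mean level was 97.6 to 421 CPM in sham (median 192) and 202 to 452 CPM in TBI (median 302), and at most 1 TBI rat lay above all sham rats. All TBI thalamus libraries but 1 thus lay within the sham range. tRNA4533-LysTTT had a log2 fold change of -0.25 (SE 0.20) in cortex and 0.05 (SE 0.22) in thalamus. With library size scaling in cortex its value was 0.04, and with TMM factors in thalamus -0.03, so its sign depended on the scaling. tRNA3846-LysTTT had -0.02 (SE 0.20) in cortex, and 0.28 with library size scaling, and -0.04 (SE 0.31) in thalamus. Without single rats the value of tRNA3846-LysTTT ran from -0.09 to 0.12 in cortex and from -0.15 to 0.24 in thalamus. That of tRNA4533-LysTTT ran from -0.35 to -0.15 in cortex and from -0.01 to 0.17 in thalamus, so among these 4 values only the cortical one of tRNA4533-LysTTT kept its sign.

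**Figure D2:**
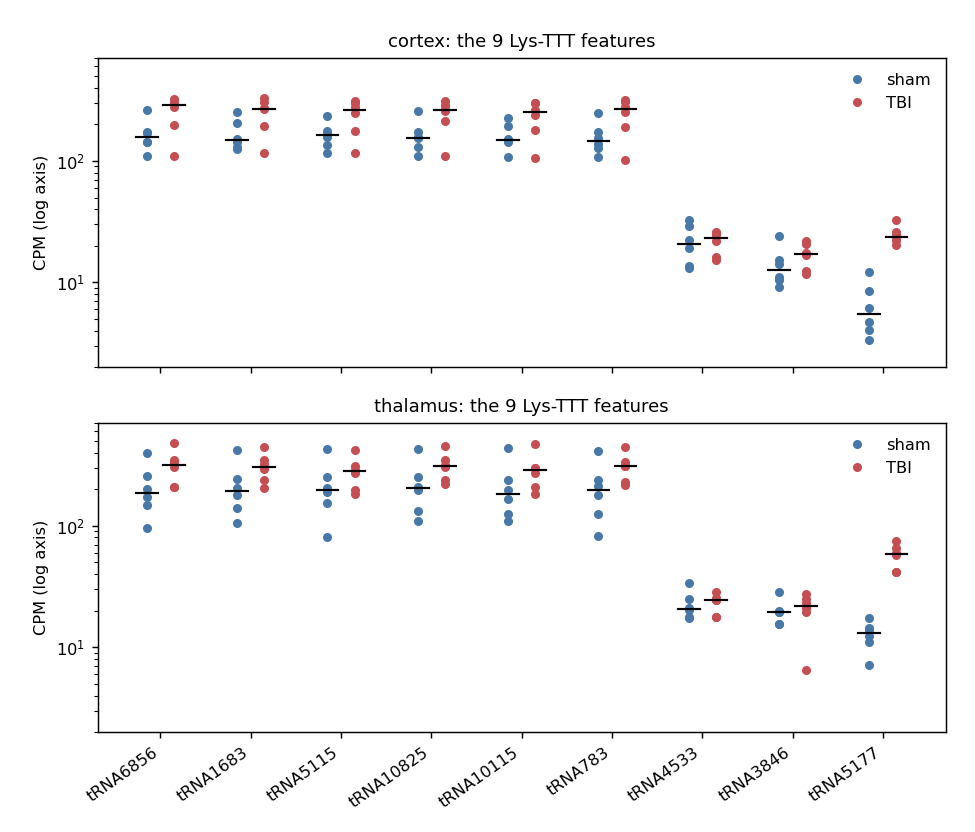
CPM of the 9 Lys-TTT features (logarithmic vertical axis) in the 12 cortex libraries (top) and the 12 thalamus libraries (bottom), with sham in blue, TBI in red and group medians as black bars. The 6 features on the left run together at about the same level, and tRNA5177 on the far right is the feature whose TBI and sham points do not overlap.

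The median log2 fold change of the other 8 members was 0.25 in cortex and 0.57 in thalamus, against 0.00 and 0.06 over all tested features and 0.09 and 0.27 over the tested tRNA features. tRNA5177-LysTTT stood 1.44 above the median of the other 8 in cortex and 1.51 above it in thalamus on the log2 scale. In cortex TMM gave factors of 0.969 to 1.22 to the TBI libraries and of 0.766 to 1.11 to the sham libraries. Scaling by library size alone moved the median of all cortical features to 0.30, and tRNA5177-LysTTT was then at 2.00 and the other 8 at a median of 0.55. The main thalamus values carry no TMM factor, so the main fold changes of the regions are not on one scale. With TMM factors in thalamus, tRNA5177-LysTTT was at 2.01 and the other 8 at a median of 0.49. A larger injury difference in thalamus is therefore not read from the main values.

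**Figure D3:**
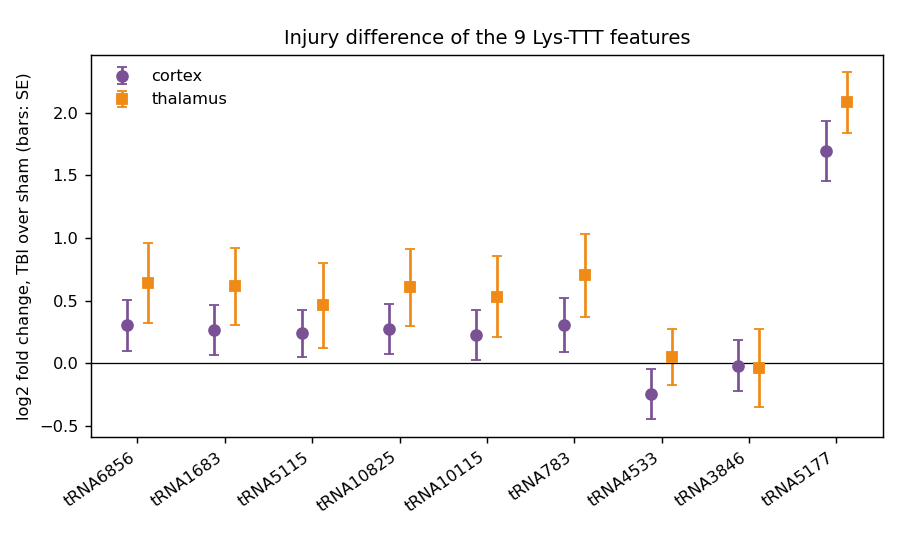
Log2 fold change of TBI over sham (vertical axis) for each Lys-TTT feature in cortex (circles) and thalamus (squares), with standard errors. tRNA5177 lies at 1.70 and 2.08, and the other 8 lie between -0.25 and 0.70. Cortex values are TMM-scaled and thalamus values are not, so the regions do not share one scale.

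The share of Lys-TTT reads taken by tRNA5177-LysTTT does not depend on how libraries are scaled. In cortex the share was 0.627% ± 0.242 in sham and 1.77% ± 0.586 in TBI (SD, n = 6). The highest sham library, rat 55, had 1.06% (exact Clopper-Pearson 95% interval 0.550 to 1.85), and the lowest TBI library, rat 45, had 1.32% (0.914 to 1.84). The groups did not overlap, although these intervals, which cover counting error only, did. In thalamus the share was 1.16% ± 0.761 in sham and 3.18% ± 1.07 in TBI (SD, n = 6), and here the groups overlapped. Sham rat 55 had 2.64% (1.32 to 4.67) on 11 of 417 reads, while TBI rat 52 had 1.48% (1.18 to 1.84) on 80 of 5397 reads. The other 5 sham thalamus libraries were at 0.538% to 1.26%.

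The share moves with the abundant features as well as with tRNA5177-LysTTT itself. Rat 55 had the lowest summed Lys-TTT level of the sham thalamus libraries, 666 CPM, and rat 63, with the highest share in TBI cortex (2.90%), had the lowest sum of that group, 707 CPM. The ratio of tRNA5177-LysTTT reads to the summed reads of the 2 other low features, tRNA3846 and tRNA4533-LysTTT, was therefore also taken, a measure chosen after the values were seen. It was 0.183 ± 0.0768 in sham cortex (0.118 to 0.324) and 0.660 ± 0.112 in TBI cortex (0.515 to 0.826). In thalamus it was 0.303 ± 0.0591 in sham (0.194 to 0.355) and 1.43 ± 0.668 in TBI (0.741 to 2.67; SD, n = 6). By this ratio sham and TBI rats were apart in both regions. That is a description only, since tRNA5177-LysTTT was chosen for its separation of the groups. The highest ratio, in TBI thalamus rat 56, rested on 4 reads of tRNA3846-LysTTT and 11 of tRNA4533-LysTTT. In TBI thalamus tRNA5177-LysTTT, the least abundant member in both sham groups by mean CPM, exceeded each of the 2 other low features in every rat.

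The second comparison was between the regions within each rat. This contrast was not used to choose tRNA5177-LysTTT, although values of the same libraries were. In sham rats its share of Lys-TTT reads was higher in thalamus than in cortex in 6 of 6 rats, by 0.532 percentage points on average (SD 0.526, n = 6). In TBI rats it was also higher in thalamus in 6 of 6 rats, by 1.41 percentage points (SD 1.10, n = 6). Each gave p = 0.0312 in an exact two-sided paired permutation test, the smallest p that 6 pairs allow. Over the family of 18 such tests (9 features in sham and in TBI rats) neither passed the correction (adjusted exact permutation p = 0.141 for both). With 6 pairs the correction could be passed only if most of the 18 tests reached the smallest p. It therefore could not decide on a single feature, and nothing is read from this failure. Without sham rat 55 the difference in sham rats was 0.323 percentage points. Without the pairing by rat, the unadjusted exact permutation p was 0.0779 in sham rats and 0.0260 in TBI rats. As a ratio to the 2 other low features, the thalamus exceeded the cortex by 0.120 in sham rats (exact permutation p = 0.0938) and by 0.766 in TBI rats (exact permutation p = 0.0312).

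**Figure D4:**
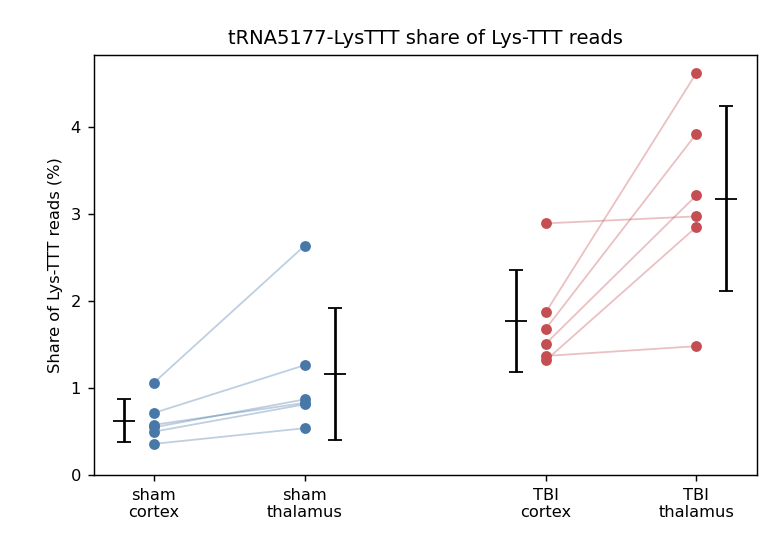
Share of Lys-TTT reads assigned to tRNA5177-LysTTT, in percent (vertical axis, from 0), by library. Lines join the cortex and thalamus of 1 rat, and black bars are the mean ± SD of 6 rats. All 12 lines rise from cortex to thalamus, those of TBI rats 52 and 63 only slightly. The sham rat with 2.64% in thalamus lies inside the range of the TBI thalamus points.

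Among the other members, the share of tRNA5115-LysTTT was lower in thalamus in 6 of 6 TBI rats, by 1.28 percentage points (15.7% ± 0.647 in cortex and 14.5% ± 0.463 in thalamus, SD, n = 6). In sham rats its mean difference was -0.184 percentage points (SD 1.74, n = 6), with 4 of 6 rats higher in thalamus, and it turned to 0.413 without rat 55 and to 0.0463 without rat 50. The share of tRNA4533-LysTTT was lower in thalamus in 6 of 6 TBI rats, from 1.51% ± 0.396 to 1.24% ± 0.117. Both had an exact paired permutation p of 0.0312 and an adjusted exact permutation p of 0.141. Neither passed, under the same limit of the correction. Shares within a library sum to a whole, so these differences are not independent of each other. The other 14 of the 18 tests gave an adjusted exact permutation p of at least 0.750. The summed Lys-TTT features made up 0.982% ± 0.145 of the reads of the 250 tRNA features in both tables in sham cortex and 1.16% ± 0.429 in sham thalamus (exact paired permutation p = 0.438, n = 6). In TBI rats the shares were 1.18% ± 0.165 and 1.43% ± 0.230, higher in thalamus in 5 of 6 rats (exact paired permutation p = 0.0625, adjusted p = 0.125 over 2 tests).

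The lysine tRNAs of the other anticodon, CTT, were described as a list. Of 17 Lys-CTT features in the cortex count table, 14 were tested in each region, and 0 passed an adjusted p of 0.05 in edgeR or in limma. With 4.34% of all tested features called in cortex and 2.19% in thalamus, fewer than 1 of 14 would be called at those shares, so nothing is read from this count. At an unadjusted p of 0.05, 0 passed in cortex (edgeR) and 1 in thalamus (limma), where 18.4% and 7.97% of all tested features did, and DESeq2 called 0 in cortex at either threshold. Their median log2 fold change was 0.04 in cortex and 0.10 in thalamus. The highest was tRNA820-LysCTT in both regions, at 0.53 (SE 0.27, adjusted p = 0.289 in edgeR) in cortex and 0.90 (SE 0.35, adjusted p = 0.332 in limma) in thalamus. The lowest was tRNA8770-LysCTT in cortex, at -0.45 (SE 0.40, adjusted p = 0.581 in edgeR), and tRNA8775-LysCTT in thalamus, at -0.09 (SE 0.30, adjusted p = 0.936 in limma). The Lys-CTT features were far more abundant as a sum, with 13598 ± 4101 CPM in sham cortex and 15969 ± 5802 CPM in TBI cortex, and with 15571 ± 5796 CPM in sham and 16938 ± 3498 CPM in TBI thalamus (SD, n = 6). Per feature length, levels were not compared, since the tables give no length.

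Among 41 anticodons with at least 3 tested features in cortex and 39 in thalamus, the distance of the highest feature from the median of its other features was set side by side. Lys-TTT ranked second in both regions, at 1.44 in cortex and 1.51 in thalamus, behind Ile-AAT, where tRNA1652-IleAAT stood 1.66 and 1.96 above the others. The median over anticodons was 0.24 in cortex and 0.22 in thalamus. By the same measure Ser-TGA came after Lys-TTT in cortex (1.29, tRNA3731-SerTGA) and Trp-CCA in thalamus (0.88, tRNA11179-TrpCCA). The order is a description of the fitted fold changes, chosen with the contrast that set tRNA5177-LysTTT apart.

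**Figure D5:**
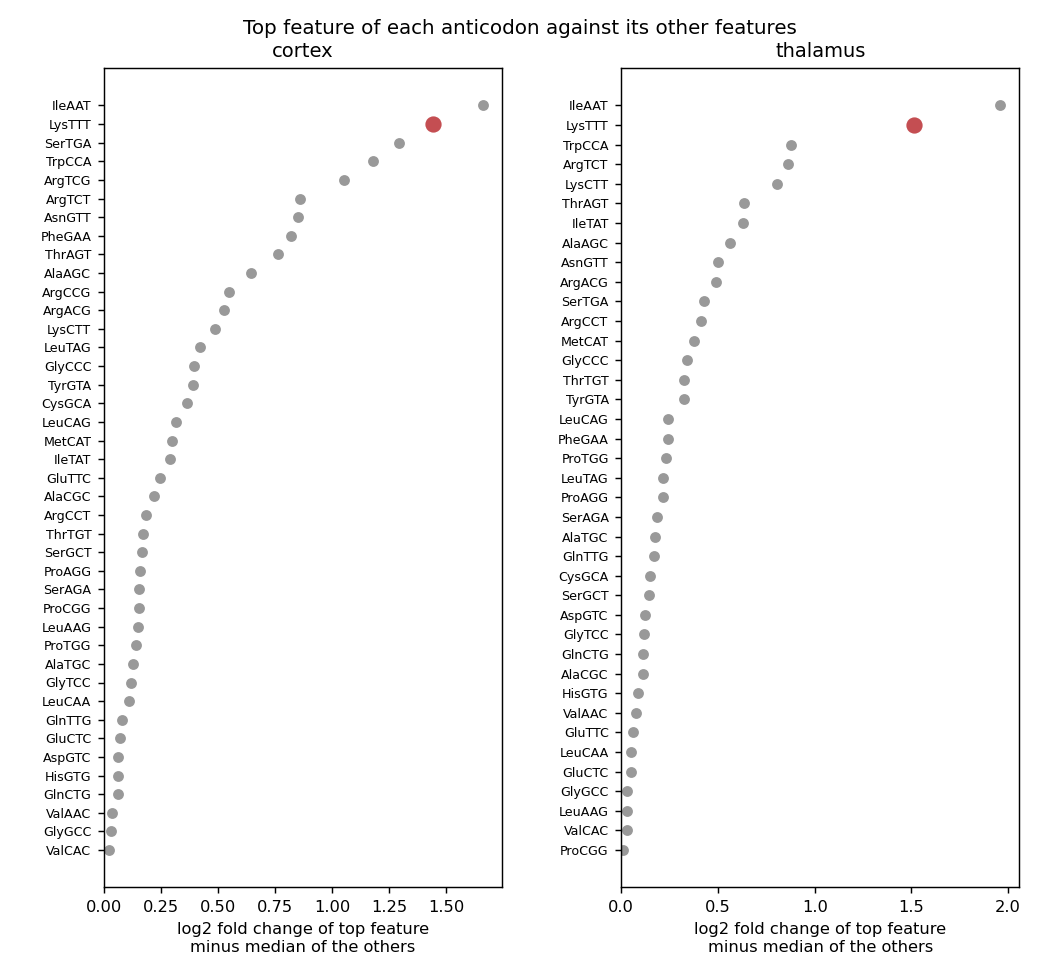
Distance on the log2 scale (horizontal axis) between the highest fold change of TBI over sham within an anticodon and the median fold change of the other features of that anticodon, in cortex (left) and thalamus (right). Each point is 1 anticodon with at least 3 tested features, ordered by distance, and Lys-TTT, in red, is the second from the top in both panels.

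The features with the profile most like that of tRNA5177-LysTTT were then sought among 594 others. Likeness was the root mean square difference of log2(CPM + 1), centred per region, over all 24 libraries. The nearest was tRNA1652-IleAAT at 0.45, followed by tRNA7267-AsnGTT at 0.50, tRNA8581-AsnGTT at 0.52, tRNA2846-AsnGTT at 0.55 and tRNA4134-AsnGTT at 0.56, where a flat profile would stand at 1.06. These features decode isoleucine and asparagine codons. tRNA1652-IleAAT was at 6.55 ± 2.65 CPM in sham and 35.1 ± 10.3 CPM in TBI cortex (SD, n = 6). Its thalamic levels were 11.2 ± 3.46 CPM in sham and 61.0 ± 21.6 CPM in TBI. tRNA7267-AsnGTT had 6.33 ± 1.29 CPM in sham cortex, 15.4 ± 2.86 CPM in TBI cortex, 10.3 ± 2.82 CPM in sham thalamus and 29.2 ± 5.54 CPM in TBI thalamus. The other Lys-TTT features were farther away, the nearest being tRNA1683-LysTTT at rank 44 (0.86) and the farthest tRNA3846-LysTTT at rank 287 (1.07). The median distance over the 594 features was 1.08. These distances include the step between sham and TBI that set tRNA5177-LysTTT apart, so the order is a description.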

How the data were processed

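The authors trimmed adapters, mapped the reads to RGSC3.4, a rat assembly, counted them per miRNA (miRBase) and per tRNA, and tested with edgeR. The aligner is not given in the sources used here. The authors deposited read counts (cortex with tRNA features, thalamus with miRNAs only) and CPM tables of miRNAs and tRNA features, scaled to each library's total with no TMM factor. All thalamic tRNA CPM values lay within 0.01 reads of a whole number, given the deposited miRNA counts, and reads per library were taken from this.

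Groups and rat numbers came from the sample titles. Cortex counts were fitted with edgeR 4.0.16 (R 4.3.3; filterByExpr, TMM, quasi-likelihood test), and thalamus log2(CPM + 1) with limma 3.58.1 (eBayes, trend), keeping a feature if 6 or more libraries reached 1 CPM, both with Benjamini-Hochberg adjustment over all small RNA features at 0.05. Both were tested on simulated data with the same spread beyond counting error for every feature, unlike the real data. Standard errors in edgeR are the absolute log2 fold change over the root of F. Regions were compared by exact sign-flip permutation over rats.

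The rat number pairs the regions of 1 animal. Deviations from group means correlated between the regions of a rat with a median of 0.51 (0.04 to 0.68) in TBI and 0.02 (-0.27 to 0.52) in sham over 549 features, n = 6 rats each. Between different rats of a group the median was -0.10 in TBI and -0.04 in sham. In sham the median within a rat was thus close to that between rats. Named were all 9 Lys-TTT features, the highest and lowest Lys-CTT feature, the 5 nearest profiles and the anticodon with the largest distance. Features named beyond this, Ser-TGA and Trp-CCA with their top features, were added after their values were seen. The members and lists were chosen with earlier results of these data known. Alternatives were library size scaling, DESeq2 1.42.0, other pseudocounts, no filter, TMM on CPM, other denominators and leaving out each rat.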

Additional observations from a re-analysis of the deposited data

Results flagged for a closer look

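Among 48 groups of 6 values examined (CPM of the 9 features, the summed Lys-TTT level, its share of tRNA reads and the tRNA5177-LysTTT share), 3 held a value far from the others, where chance gives about 2.4. The measure is how far the extreme value lies from its neighbour, as a part of the spread from lowest to highest. In TBI cortex rat 63 had a tRNA5177-LysTTT share of Lys-TTT reads of 2.90%, with the next at 1.87% (0.650). In sham thalamus rat 55 had 2.64%, with the next at 1.26% (0.655), and the same library had the highest tRNA3846-LysTTT, 28.7 CPM against 19.8 CPM (0.672). That library held 417 Lys-TTT reads, the fewest of the 24.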

How the results depend on the processing

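The log2 fold change of tRNA5177-LysTTT kept its direction under the settings run, from 1.70 to 2.00 in cortex (TMM, library size, DESeq2, no filter) and from 1.80 to 2.13 in thalamus (pseudocounts of 0.5 and 5 CPM, no filter, TMM factors). The number of features called in cortex was 28 (18 higher, 10 lower in TBI), but 55 with library size scaling (52 higher, 3 lower) and 43 with DESeq2, and 9 to 28 when single rats were left out (9 without sham rat 50, 11 without TBI rat 24, 12 without sham rat 38 or TBI rat 45, 14 without sham rat 32 and 18 without sham rat 26). In thalamus it was 14, and 10 to 17 without single rats. The region difference of the tRNA5177-LysTTT share in sham rats (0.532 percentage points) lost its unadjusted p without the replicate block (exact permutation p = 0.0779) and as a ratio to tRNA3846 plus tRNA4533 (0.120, exact permutation p = 0.0938), and was 0.323 to 0.603 without single rats. With 5 pairs the test cannot go below 0.0625. Without the block, tRNA4533-LysTTT in TBI rats (-0.268 percentage points) had an exact permutation p of 0.0931, and no other unadjusted call changed. As that ratio, the difference between TBI and sham was 0.476 in cortex and 1.12 in thalamus, in units of the ratio. The count test on recovered thalamic reads was not run. The precision of tRNA5177-LysTTT was limited by 4 to 28 reads per library in sham cortex. The causes of these changes were not tested.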
